A study of Mus musculus with 121 samples.

Results

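The genes described are 10 antioxidant enzymes and carriers, Prdx1 to Prdx6, Gpx1, Gpx4, Txn1 and Cat, out of 23946 genes in the deposited expression table. They were chosen by name as the enzymes that remove peroxides, to ask which of their transcripts are kept and which are lost as granulocytic cells mature, with Prdx2 set against the other 9. Prdx2 was singled out because its level had already been seen to differ between the sorted populations, so its values are a description and carry no test.

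The study concerns a Gfi1 mutation linked to neutropenia, and the cells used here are single cells of mouse bone marrow enriched for the receptor Kit and sorted. Each was captured on the Fluidigm C1 system, a microfluidic chip, and its RNA was sequenced. The populations are CD11b+ GMP-P, 46 cells, and GMP, 75 cells. Both came from C57BL/6 mice with the R412X allele of Gfi1, a transcriptional repressor that neutrophil formation needs. The genotype is written as Gfi1-R412X/- in one label and as HTZ in another. Every cell carries the allele, and no unmutated cells were analysed here, so no value below measures an effect of the mutation. No age, sex or animal is named, so each population counts as 1 sample, its cells are not replicates and no p-value was computed.

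Peroxiredoxins reduce hydrogen peroxide and organic peroxides through a reactive cysteine, and most of them are returned to the working state by thioredoxin. Glutathione peroxidases do the same work with a selenium-containing residue and glutathione, and catalase splits hydrogen peroxide inside peroxisomes. In granulocytes these enzymes work beside myeloperoxidase and the phagocyte oxidase, which make and use oxidants against microbes.

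Promoter stretches are given for Prdx1, Prdx3 and Prdx5, because each held a motif match that no other member's window had. RefSeq windows from 250 bases before to 50 bases after the transcript start were read for 9 of the 10 members, 12 windows in all because Gpx4 has 4. They belong to build GRCm38.p6, whereas the study used mm9, so only the promoters carry coordinates here. The stretch of Prdx1 runs from 200 to 56 bases before its start, on the plus strand at chr4:116685399-116685543, with the match to the antioxidant response element in capitals (TGACNNNGC, read here on the other strand).
Prdx1: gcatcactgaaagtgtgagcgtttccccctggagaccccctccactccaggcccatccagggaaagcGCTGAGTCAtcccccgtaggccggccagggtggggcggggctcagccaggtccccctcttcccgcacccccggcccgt
The stretch of Prdx3 runs from 112 to 83 bases before its start, on the minus strand at chr19:60874621-60874650, with the C/EBP match (TTNNGCAA, on the other strand) in capitals.
Prdx3: gtccagcctctTTGCATAAaccacacccct
The stretch of Prdx5 runs from 60 to 31 bases before its start, on the minus strand at chr19:6910137-6910166, inside an exon of the neighbouring gene Trmt112, with the first of its 2 ETS matches (ACCGGAAG) in capitals; the second lies 17 to 24 bases after the start.
Prdx5: gtgaggccggaACCGGAAGgagtccacact
The response element was found in the Prdx1 window and in no other member's, beside 12.4% of all 32851 windows, and the ETS motif in the Prdx5 window only, beside 2.3%. The GC box GGGCGG was in 11 of the 12 windows, against 35.7% of all windows, and in at least 1 window of each of the 9 members. Some of the 4 Gpx4 windows overlap, so the same site can count more than once. Member windows held 47% to 68.7% G and C, with a median of 52.7% over all windows. The C/EBP motif was in the Prdx3 window alone, beside 10.8% of all. Neither the GATA motif AGATAAG (3.04% of all) nor AAATCA, the string searched for Gfi1 (14% of all), was in any of the 12. A shorter Gfi1 core was not sought. All 6 motifs were sought on both strands, and a match describes letters, not a bound site.

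The authors' table gives a state for each cell, and the names are used as deposited. Among the CD11b+ GMP-P cells 16 had a Gran state, 24 a Myelo state and 6 the state Mono. All 46 carry 1 run name, whose digits can be read as the same late July date that 13 GMP cells carry in theirs. The other 62 GMP cells belong to the run named R412X-GMP, which gives no date, and what the dates mark is not stated. The 13 late July GMP cells stand apart from the other GMP cells. Itgam, which encodes CD11b, reached 1 TPM in 11 of 13 of them and in 5 of 62 R412X-GMP cells, against 35 of 46 CD11b+ GMP-P cells, and all 13 had Gran or Myelo states. Whether their population label holds is therefore in doubt, which bears on every value over all GMP cells. They carry the run names July31 (10 cells) and Jul31_2017 (3 cells), and are pooled here as late July GMP, separate from the rest. Values within 1 run, or within this pool, are given ahead of those between populations, since population and run cannot be told apart. Granulocytes are known to make primary granules before the later ones, and the 2 classes differed in these genes. The 8 markers of later granule stages summed to a median of 195477 TPM in Myelo and 19618 TPM in Gran cells of CD11b+ GMP-P. The 4 primary granule markers summed to a median of 1277 TPM in Myelo and 43895 TPM in Gran cells. The later markers were not uniform. By at least 1 on the log2 scale, 6 of the 8 were higher in Myelo, 1 was lower and 1, a transcription factor gene, neither. All 4 primary markers were lower. Of all genes compared, 2.57% were higher and 42.5% lower.

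Depth is unknown, because TPM (a share of each cell's transcripts, corrected for gene length) keeps no read count. Cells of the Myelo states had a median of 2012 detected genes in CD11b+ GMP-P and Gran cells 3684, and the top 20 genes of a cell held, at the median, 57.8% of its TPM in Myelo and 27.9% in Gran. A gene was called detected at 1 TPM or more. Differences are of mean log2(TPM + 1), which understates those of low genes, and SDs are over cells. A gene was compared where at least 10% of the cells of either side detected it, and was called where the difference reached 1.

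Within CD11b+ GMP-P, Myelo cells had less mRNA of 6 of the 9 members compared than Gran cells, by at least 1 on the log2 scale, and more of none. Prdx3 (−4.05), Prdx1 (−2.83), Prdx2 (−1.91), Cat (−1.22), Gpx4 (−1.05) and Gpx1 (−1.02) were lower, while Prdx5 (−0.03), Txn1 (0.24) and Prdx6 (0.25) differed by less than 1. Prdx4 did not pass the filter. Among all 8390 genes compared, 42.5% were lower by at least 1 and 2.57% higher, and the median difference was −0.81, beside −1.05 over the 9 members. This background holds many rarely detected genes. With the filter set at 50% of cells, 4 of 7 members were lower, beside 73.3% of 3173 genes. The medians were then −1.02 over the members and −1.78 over all genes. That filter left out Prdx2 and Cat, and of the members kept Prdx3 and Prdx1 fell further than the median of all genes. The count of 6 in 9 thus stands against a background in which such differences were common. It came to 4 after the granule genes with S100a8 and S100a9 were taken out of the TPM, which left Gpx1 at −0.45 and Gpx4 at −0.64, beside 40.6% of all genes lower under that scaling.

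**Figure D1:**
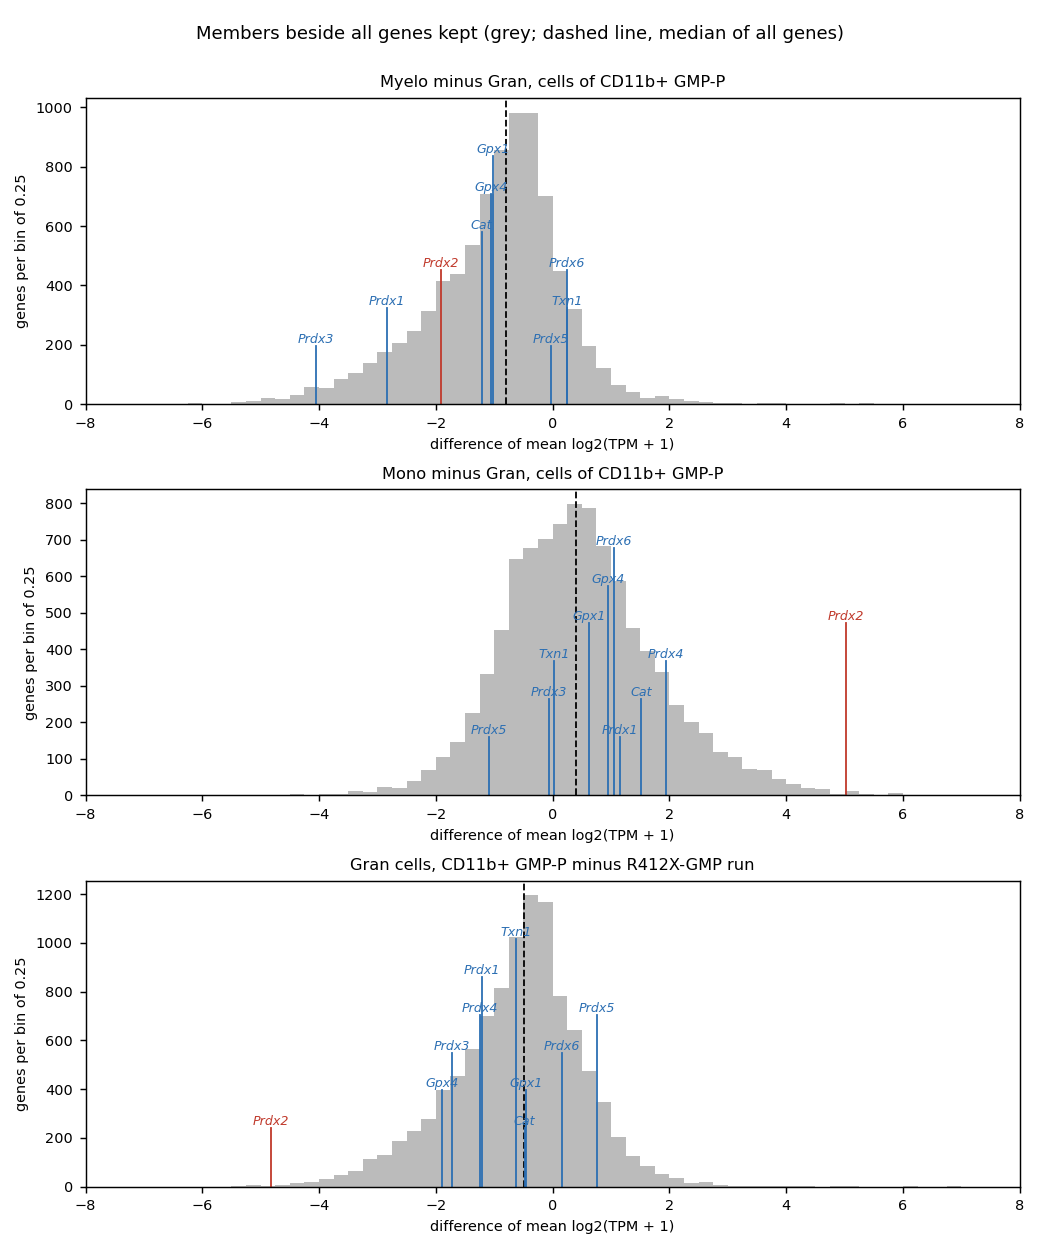
Differences of mean log2(TPM + 1) for the members (lines, Prdx2 in red) over the distribution of all genes compared (grey, genes per bin), with the median of all genes dashed. Prdx3 lies far left in Myelo minus Gran. Prdx2 stands outside the bulk in Mono minus Gran of CD11b+ GMP-P (5.02) and in Gran cells of CD11b+ GMP-P minus the R412X-GMP run (−4.82). Prdx2 was chosen for its difference between the populations, and both comparisons use the same CD11b+ Gran cells, so its place is not separate support.

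Prdx2, a cytosolic peroxiredoxin best known from red blood cells, was either clearly present or near 0 in the Gran cells of CD11b+ GMP-P, and missing from most Myelo cells. Levels in the 24 Myelo cells of CD11b+ GMP-P had a lowest value and a median of 0 TPM and a highest of 280 TPM, against 0, 0 and 845 TPM in the 16 Gran cells. The Myelo cells that detected it were 5 of 24 (20.8%, exact 95% interval 7.13 to 42.2) and the Gran cells 6 of 16 (37.5%, 15.2 to 64.6). The ranges overlap and most cells of both groups read 0, so the difference of −1.91 rests on few cells. With medians in place of means it was 0.00.

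Where Gran cells of CD11b+ GMP-P did detect Prdx2, they held 178 to 845 TPM (7.48 to 9.73 on the log2 scale), which lies inside the range of 32.1 to 1076 TPM seen in the 10 Gran cells of the R412X-GMP run. The other 10 of the 16 held at most 0.74 TPM. These 10 cells all detected Prdx1. By contrast, Prdx2 was detected in all 10 Gran cells of the R412X-GMP run (69.2 to 100%) and in all 3 late July Gran cells, which had 275, 301 and 2166 TPM. The Gran cells of CD11b+ GMP-P averaged 3.30 ± 4.33 and those of the R412X-GMP run 8.12 ± 1.71. The difference of −4.82 lay at percentile 0.1 among 10260 genes with a median of −0.49. These cells are part of the population comparison for which Prdx2 was chosen, so this rank carries no separate support. The CD11b+ Gran cells detected a median of 3684 genes and those of the R412X-GMP run 4827.5. How far detection bears on the difference was not tested. The state Gran-2 makes up 13 of the 16 cells on 1 side and 1 of the 10 on the other; that 1 cell had 163 TPM.

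Monocytic cells did not share the gap. All 6 Mono cells of CD11b+ GMP-P detected Prdx2, at 63.3, 293, 339, 404, 559 and 744 TPM, against a median of 0 TPM in the 16 Gran cells of the same run. Their mean was 8.32 ± 1.24, and Mono minus Gran came to 5.02, at percentile 99.7 of 9397 genes with a median of 0.39. The same 16 Gran cells enter the comparison of Gran cells above, so this rank is not separate support. These Mono cells detected a median of 4434 genes and the Gran cells 3684, with 17.4% and 27.9% of TPM in the top 20 genes. How far detection bears on the difference was not tested. In the R412X-GMP run 31 of 32 Mono cells detected Prdx2 (96.9%, 83.8 to 99.9), with a median of 628 TPM and a range of 0 to 2468 TPM. Mono minus Gran there was 0.37. The 2 sets of Mono cells had similar means, 8.32 in CD11b+ GMP-P and 8.49 in the R412X-GMP run, a difference of −0.17.

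In the remaining states, MP cells of the R412X-GMP run all had Prdx2 (11 of 11, 45.3 to 1810 TPM, median 517 TPM), and so did the 5 cMoP cells (41.6 to 1197 TPM). The 1 MDP cell of that run had 0 TPM, though it detected 3471 genes and 9 of the 10 members. The 2 Multi-Lin cells had 106 and 125 TPM. Prdx2 was not detected in the 7 Myelo-4 cells of CD11b+ GMP-P, and the highest of them held 0.83 TPM. There 3 cells would be 42.9%, the limit that a count of 0 allows. Of the late July Myelo cells 2 of 10 detected it (20%, 2.52 to 55.6), at 64.4 and 115 TPM. With any value above 0 TPM counted it was 60%, as 4 more cells held 0.36 to 0.72 TPM. The 2 cells were among the 3 Myelo-4 cells there, while 0 of 7 Myelo-2 cells had it. In CD11b+ GMP-P it was 0 of 7 Myelo-4 and 4 of 11 Myelo-2 cells, the other order. Both late July cells with Prdx2 carry the run name Jul31_2017. The other Myelo-4 cell, of July31, held 0.36 TPM, and the Myelo-2 cell of Jul31_2017 held 0.72 TPM. With so few cells, state and run name cannot be told apart there. In order of mean log2 level the groups ran from late July Gran (9.14, 3 cells) and MP (8.95) through cMoP (8.60), Mono (8.49 and 8.32) and R412X-GMP Gran (8.12) to CD11b+ Gran (3.30) and the Myelo cells of late July and CD11b+ (1.52 and 1.39). Neighbours within the first 6 differ by less than 1 SD over cells, and so do the 2 Myelo groups; the step between R412X-GMP Gran and CD11b+ Gran is the widest.

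**Figure D2:**
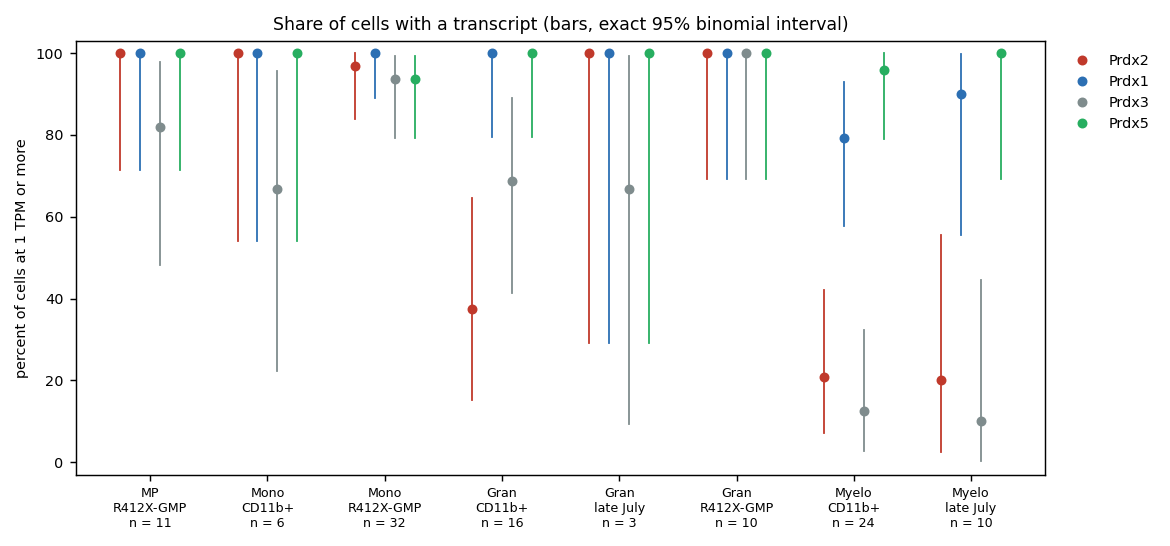
Percent of cells with at least 1 TPM of Prdx2, Prdx1, Prdx3 and Prdx5 by state and run (points), with exact 95% binomial intervals (bars) that cover counting error only. Prdx2 is at 37.5% in the Gran cells of CD11b+ GMP-P and at 100% in those of both GMP sets, while Prdx5 stays above 93% in each group drawn.

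The number of detected genes overlapped between CD11b+ Gran cells with and without Prdx2: it was 2531 to 4509 in the 6 cells with it (median 3867) and 2446 to 4401 in the 10 without (median 3357.5). Among cells with at least 2000 genes, it was found in 3 of 12 Myelo cells of CD11b+ GMP-P, against 6 of 16 Gran cells. Erythroid markers were near 0 in CD11b+ GMP-P. Of 12 such markers 11 reached 1 TPM in none of the 46 CD11b+ GMP-P cells, and their sum was at most 0.4 TPM in Myelo, 0.8 TPM in Mono and 1.0 TPM in Gran cells. In late July Myelo cells the sum was at most 2.96 TPM. In GMP Gran cells it went higher: the late July Gran cell with 2166 TPM of Prdx2 also held 3268 TPM of erythroid transcripts, and 2 of 10 Gran cells of the R412X-GMP run had at least 1 TPM, with a highest sum of 66.1 TPM. The HSCP-1 cell of that run had 120 TPM of erythroid transcripts and no Prdx2, but it detected only 1985 genes and 2 of the 10 members. A Mono cell of the same run had 204 TPM of erythroid transcripts beside 6.03 TPM of Prdx2. How far erythroid transcripts and Prdx2 go together was not tested. Prdx2 exons overlap those of Junb (173 bases) and Rnaseh2a (177 bases) on the opposite strand in the GRCm38 annotation, and the library kit does not mark strand. In CD11b+ GMP-P Rnaseh2a reached 1 TPM in 4 of 24 Myelo and 8 of 16 Gran cells. Junb did so in 13 of 24 Myelo and 5 of 16 Gran cells, and the part of both in the Prdx2 values was not tested.

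Prdx1, the other abundant cytosolic peroxiredoxin, kept a transcript in most Myelo cells at a lower level. The 24 Myelo cells of CD11b+ GMP-P held 0 to 1179 TPM with a median of 93.8 TPM, against 10.9 to 1218 TPM and a median of 600 TPM in the 16 Gran cells. It was detected in 19 of 24 Myelo and 16 of 16 Gran cells. The ranges overlap widely, but the centre of the Myelo cells sits below all except a few Gran cells. Late July cells showed a like difference, −3.26, with 0.96 to 540 TPM in 10 Myelo cells and 795, 800 and 889 TPM in 3 Gran cells, and there the groups did not overlap; 41.2% of 8577 genes were lower by at least 1 in that comparison and 12.5% higher. Prdx1 was above Prdx2 in most cells: Prdx2 exceeded it in 1 of 24 Myelo, 3 of 16 Gran and 1 of 6 Mono cells of CD11b+ GMP-P and in 10 of the 62 R412X-GMP cells. No cell detected Prdx2 without Prdx1, whereas 24 of 46 CD11b+ GMP-P cells detected Prdx1 without Prdx2.

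**Figure D3:**
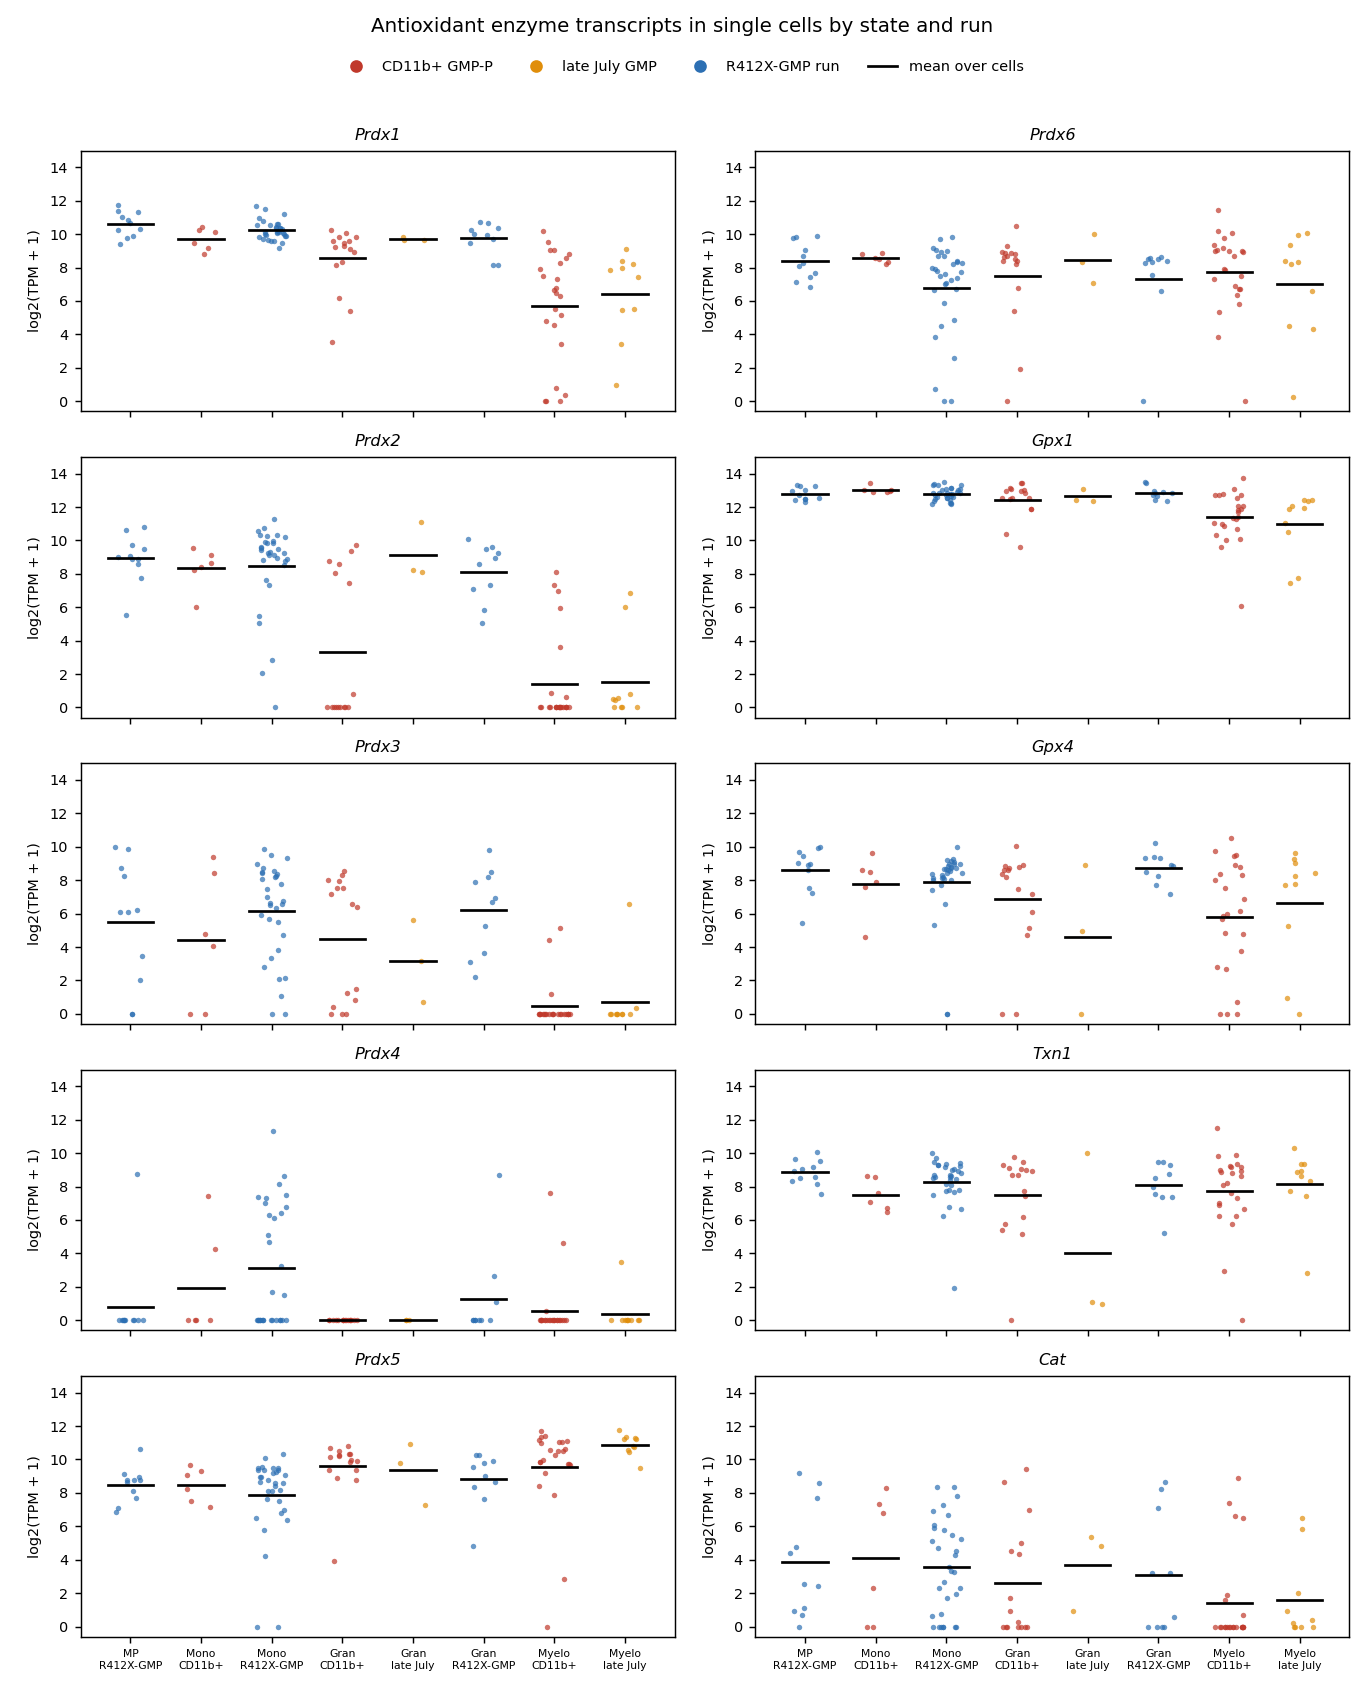
Level of each member in single cells as log2(TPM + 1), by deposited state and run (points, 1 per cell; bars, mean over cells), with MP and Mono on the left and Gran and Myelo to their right. Prdx2 splits into cells at 0 and cells near those of the other states in the CD11b+ Gran column, while Gpx1 lies above 6 in every cell.

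The mitochondrial peroxiredoxin Prdx3 showed the widest gap of the members between Myelo and Gran in CD11b+ GMP-P. It reached at most 33.6 TPM in the 24 Myelo cells with a median of 0 TPM, against a median of 88.5 TPM and a highest value of 375 TPM in the 16 Gran cells. It was detected in 3 of 24 Myelo cells (12.5%, 2.66 to 32.4) and 11 of 16 Gran cells (68.8%, 41.3 to 89.0). The difference of −4.05 lay at percentile 1.5 of all genes compared, and it was −3.71 in cells with at least 2000 genes. Unlike Prdx2, Prdx3 did not set Mono apart from Gran in that run (−0.07), and the CD11b+ Gran cells were 1.72 below those of the R412X-GMP run, at percentile 15.5. In late July GMP 1 of 10 Myelo cells detected it, with 96.1 TPM, and the 3 Gran cells had 0.66, 7.89 and 48.5 TPM.

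Prdx4, the peroxiredoxin of the endoplasmic reticulum, was found mainly on the monocytic side. All 5 cMoP cells detected it, at 99.9 to 484 TPM with a median of 143 TPM. In the R412X-GMP run 16 of 32 Mono cells had it (50%, 31.9 to 68.1) at up to 2580 TPM, against 3 of 10 Gran cells and 1 of 11 MP cells. Mono minus Gran was 1.85 there, at percentile 98.7, and Mono minus MP 2.30. In CD11b+ GMP-P it was detected in 2 of 24 Myelo and 0 of 16 Gran cells, with a limit of 18.8% for 3 cells, and in 2 of 6 Mono cells. At these levels a lower level in Myelo than in Gran cells was not detectable.

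Prdx5 is a peroxiredoxin of mitochondria, peroxisomes and cytosol, and after Gpx1 it had the highest median level of the members in Myelo cells. The 24 Myelo cells of CD11b+ GMP-P had a median of 1360 TPM (0 to 3280), against 1079 TPM (14.1 to 1795) in the 16 Gran cells. Among the Myelo states with several cells its median was highest in Myelo-4, with 923 to 2613 TPM in 7 cells and a median of 2142 TPM, against a median of 992 TPM and 234 to 3280 TPM in 11 Myelo-2 cells. The mean difference of Myelo-4 minus Gran-2 was 1.53, at percentile 96.9, and that of Myelo minus Gran in late July GMP was also 1.53. Taken over all Myelo cells the difference was −0.03, and with granule genes left out of the TPM it was 0.54. It was −0.79 in cells with at least 2000 genes. The 5 Myelo-1 cells had 0 to 1510 TPM with a median of 584 TPM.

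Trmt112 lies opposite Prdx5, with 409 overlapping exon bases in the GRCm38 annotation, so its reads cannot be told apart there without strand. In CD11b+ GMP-P 9 of 24 Myelo and 12 of 16 Gran cells detected Trmt112, with a median of 0 TPM in Myelo and 112 TPM in Gran cells, and its part in the Prdx5 values was not tested. Mono minus Gran for Prdx5 was −1.08 in CD11b+ GMP-P and −0.98, short of the call, in the R412X-GMP run.

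Prdx6, which uses glutathione and also acts as a phospholipase, differed little between Myelo and Gran overall. Its median was 323 TPM (0 to 2786) in 24 Myelo cells of CD11b+ GMP-P and 383 TPM (0 to 1415) in 16 Gran cells, and the ranges cover each other. The Myelo states were uneven: 11 Myelo-2 cells had a median of 515 TPM and 7 Myelo-4 cells 106 TPM, with Myelo-4 minus Myelo-2 at −2.34. A near-identical gene, Prdx6b, stayed under 1 TPM in every cell of both populations, but reads shared by the 2 genes could have been split between them, so the Prdx6 levels are uncertain to that extent.

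Gpx1, the main cytosolic glutathione peroxidase, was detected in every cell of both populations and was the most abundant member in all 62 cells of the R412X-GMP run, in 40 of 46 CD11b+ GMP-P cells and in 9 of 13 late July GMP cells. The Myelo cells of CD11b+ GMP-P held a median of 2982 TPM (67.3 to 13589), against 6537 TPM (792 to 11013) in Gran cells and 8127 TPM (7504 to 11323) in the 6 Mono cells. Myelo minus Gran was −1.02 and stands close to the median of all genes, at percentile 41.8. Within Myelo the 7 Myelo-4 cells had 780 to 3656 TPM and the 11 Myelo-2 cells 1297 to 13589 TPM, and the lowest value, 67.3 TPM, came from the 1 Myelo-3 cell; Myelo-4 minus Myelo-2 was −1.33. Among MP, cMoP, Mono and Gran cells of the R412X-GMP run the mean stayed between 12.80 and 12.94 on the log2 scale, with SDs of 0.23 to 0.39.

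Gpx4 reduces lipid peroxides in membranes and protects cells from ferroptosis. In CD11b+ GMP-P its median was 66.3 TPM (0 to 1464) in Myelo cells and 306 TPM (0 to 1070) in Gran cells, and 20 of 24 and 14 of 16 cells detected it. The 7 Myelo-4 cells split, with 3 detecting it and a highest value of 1464 TPM, and they lay 3.58 below Myelo-2. The difference of Myelo and Gran was not stable: it was −1.05 in all cells, 0.13 between Myelo-2 and Gran-2, and 2.01 in late July GMP. That last value is −0.30 without the 1 Gran cell that held erythroid transcripts and no Gpx4. Gran cells of CD11b+ GMP-P were 1.90 below those of the R412X-GMP run, where all 10 had at least 141 TPM.

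Thioredoxin, Txn1, hands electrons to most peroxiredoxins. It was detected in 23 of 24 Myelo and 15 of 16 Gran cells of CD11b+ GMP-P, with 0 to 2909 TPM in Myelo and 0 to 874 TPM in Gran cells. The median log2 level was 8.44 in Myelo and 8.69 in Gran cells, and the mean 7.72 ± 2.40 in Myelo and 7.48 ± 2.52 in Gran cells. Myelo minus Gran was 0.24 by means, at percentile 89.8, and −0.25 by medians. In late July GMP the 10 Myelo cells had 6.17 to 1240 TPM and the 3 Gran cells 0.95, 1.12 and 1022 TPM, a difference of 4.15 that turns on 2 Gran cells near 1 TPM. Catalase, Cat, was detected in 6 of 24 Myelo and 7 of 16 Gran cells of CD11b+ GMP-P, with medians of 0 and 0.575 TPM and highest values of 476 and 689 TPM. Its level was low in all states, with 23 of 32 Mono and 8 of 11 MP cells of the R412X-GMP run above 1 TPM, and the difference of −1.22 came with groups that overlap almost fully.

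Late July GMP gave the comparison of Myelo and Gran in other cells, though with only 3 Gran cells. These all carry the run name July31, while the 3 cells named Jul31_2017 are all Myelo cells. Of 10 members 6 were lower in Myelo by at least 1 and 3 higher, beside 41.2% and 12.5% of all genes. Prdx1, Prdx2 (−7.62), Prdx3 (−2.48), Gpx1 (−1.64) and Cat (−2.11) were lower there as in CD11b+ GMP-P, Prdx6 (−1.48) was also lower, and Prdx5, Gpx4 and Txn1 were higher. Leaving out the Gran cell with erythroid transcripts gave −6.65 for Prdx2, 7.15 for Txn1, and 6 lower and 2 higher members. The 2 comparisons share no cells.

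Within the Myelo states of CD11b+ GMP-P, 7 Myelo-4 cells stood below 11 Myelo-2 cells by at least 1 for 6 of 10 members, and above for none, beside 30.7% and 10.9% of 6511 genes. These were Gpx4 (−3.58), Prdx6 (−2.34), Prdx2 (−2.15), Txn1 (−2.01), Gpx1 (−1.33) and Prdx4 (−1.17). Prdx1 (0.13) and Prdx5 (0.85) were not lower. Against Gran-2, 3 of 10 members were lower and 2 higher in Myelo-2, beside 43.4% and 5.29% of all genes, while 7 of 9 were lower and 1 higher in Myelo-4, beside 52.7% and 5.71%. Myelo-4 cells detected a median of 1642 genes and Myelo-2 cells 2261, so the 2 states differ in detection as well.

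Each member was also taken as a share of the summed TPM of the 10 members in a cell, which other abundant genes cannot shift. Prdx5 held a larger share and Gpx1 a smaller one in Myelo-4 than in Gran-2. In the 7 Myelo-4 cells of CD11b+ GMP-P, Prdx5 took a median of 48% (19.8 to 64.9) and Gpx1 34.5% (20.6 to 59.2), whereas in the 13 Gran-2 cells Prdx5 took 9.23% (0.90 to 15.9) and Gpx1 68.9% (50.3 to 77.6). All 7 Myelo-4 cells had a higher Prdx5 share than all 13 Gran-2 cells. Prdx5 was above Gpx1 in 4 of these 7 cells, in 0 of 11 Myelo-2 cells of the same run and in 0 of 62 R412X-GMP cells. In CD11b+ GMP-P Prdx5 also exceeded Gpx1 in the 1 Myelo-3 cell and in 1 of 3 Gran-1 cells, at 1643 against 1326 TPM. Over all 24 Myelo cells its share had a median of 20.9%, against 10.2% in Gran and 4.01% in Mono cells of the same run. The late July cells showed 29.8% in Myelo and 6.50% in Gran cells, and Prdx5 was above Gpx1 in 1 of the 3 Myelo-4 and 3 of the 7 Myelo-2 cells there, so that this order was not confined to Myelo-4. Prdx1 took 1.65% in Myelo and 5.75% in Gran cells of CD11b+ GMP-P. The sum itself had a median of 6383 TPM in Myelo and 10057 TPM in Gran cells.

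**Figure D4:**
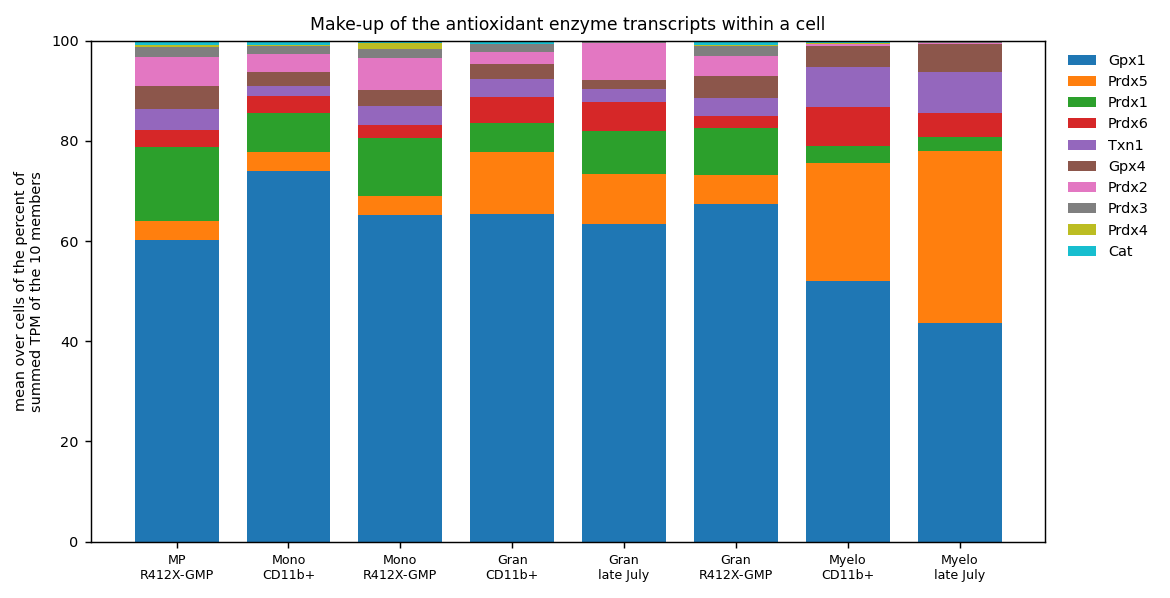
Mean over cells of each member's percent of the summed TPM of the 10 members, by state and run (stacked bars that add to 100). Gpx1 takes the largest part in each column, and Prdx5 takes a larger part in the 2 Myelo columns than in the others.

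In the R412X-GMP run few members differed by 1 among MP, Gran and Mono. The 5 cMoP cells lay further off for Prdx3, with a mean log2 level of 2.24 against 5.52 in MP, and for Prdx4, with 7.49 against 0.79 in MP. Gran minus MP reached 1 in 1 of 10 members, Prdx6 (−1.08), beside 9.2% lower and 20% higher among all 10204 genes, and Prdx2 was at −0.83. Mono minus MP gave 1 lower, Prdx6 (−1.62), and 1 higher, Prdx4 (2.30), beside 8.87% and 13.4%. Mono minus Gran gave 1 higher, Prdx4, and none lower, beside 7.65% and 15%. In CD11b+ GMP-P the same comparison gave 5 higher, Prdx2, Prdx4 (1.94), Cat (1.51), Prdx1 (1.16) and Prdx6 (1.05), and 1 lower, Prdx5, beside 30.9% and 10.7% of all genes. The Mono and Gran comparisons use the same Gran cells as the Myelo and Gran ones within CD11b+ GMP-P, and those with MP share the MP cells.

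Across the populations, CD11b+ GMP-P minus GMP was lower by at least 1 for 6 of 10 members and higher for none, beside 28.8% and 2.3% of 9150 genes with a median of −0.56. Prdx2, chosen for this difference, led with −4.38, at the lowest end of all genes, ahead of Prdx3 (−2.44) and Prdx1 (−2.35), while Prdx5 (0.92) and Prdx6 (0.81) were above the general shift. Against the 13 late July GMP cells 1 of 9 members was lower, Prdx5 (−1.10), and 1 higher, Prdx3 (1.11), beside 5.95% and 12.7% of all genes. Prdx2 differed by −0.32, with 17 of 46 CD11b+ GMP-P and 5 of 13 late July cells detecting it. Against the 62 cells of the R412X-GMP run 6 members were lower and 1 higher, beside 36.3% and 2.74% of all genes, with Prdx2 at −5.23 and Prdx5 at 1.35. The make-up of states differs between the 2 sets of GMP cells. Restricted to Gran cells, 5 members were lower in CD11b+ GMP-P than in the R412X-GMP run and none higher, beside 31.6% and 5.52%. Among Mono cells Prdx3 (−1.72) and Prdx4 (−1.16) were lower and Prdx6 (1.76) higher in CD11b+ GMP-P than in the R412X-GMP run, 2 and 1 members beside 17.8% and 17.5%. Myelo cells of CD11b+ GMP-P had less Prdx5 (−1.33) than late July Myelo cells, 1 member lower and none higher, beside 14.7% and 5.84%.

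Over the 10 groups of at least 5 cells defined by run and state, the genes whose mean level ran most like that of Prdx2 were Fkbp1a (Pearson r 0.988), Mrpl33 (0.988), Bloc1s2 (0.983), Ubxn8 (0.983) and Mrps28 (0.982), among 11287 genes. Fkbp1a encodes a small immunophilin, and Mrpl33 and Mrps28 encode proteins of the mitochondrial ribosome. Of the members Cat (0.951, rank 119) and Prdx1 (0.934, rank 237) came nearest, and Prdx5 was furthest (−0.475). For Prdx6, which among the 9 members compared had the most positive Myelo minus Gran difference in CD11b+ GMP-P (0.25, next to Txn1 at 0.24), they were Ncoa2 (0.904), Lins, Fam196a, Wnk1 and Sos2, at 0.847 to 0.904. The 10 points share runs and detection levels, so these values only rank genes.

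Genes that work with the members followed 12 lists. In Myelo minus Gran of CD11b+ GMP-P, both superoxide dismutases compared, which make hydrogen peroxide from superoxide, were lower, Sod2 in mitochondria by −2.92 and Sod1 in the cytosol by −2.79, out of 3 listed. Of 6 thioredoxin system genes compared 4 were lower and none higher, led by Txn2 (−2.83), the mitochondrial thioredoxin, Txnip (−2.76), which binds thioredoxin, and Txnl1 (−2.41). Of 7 genes for protein oxidation in the endoplasmic reticulum 5 were lower and none higher, among them the disulfide isomerases Pdia4 (−4.86), Pdia6 (−3.52) and P4hb (−2.94). All these counts stand beside 42.5% lower and 2.57% higher among all genes.

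The glutathione genes divided, against the same 42.5% lower and 2.57% higher among all genes. Of 8 for glutathione synthesis and recycling 4 were lower and 1 higher: Glrx, a glutaredoxin, was higher by 2.03 with means of 8.39 in Myelo and 6.36 in Gran, while Glrx3 (−1.78) and Gsr, glutathione reductase (−1.77), were lower. Of 9 glutathione transferases 5 were lower and 1 higher, with Gstm1 (−6.06), Mgst2 (−3.77) and Gsto1 (−3.41) furthest down and Mgst1 (1.47) up. Gpx3, the 1 further glutathione peroxidase compared out of 6, was at −1.29. Selenoproteins and the enzymes that make them were lower in 9 of 15 and higher in none, led by Sep15 (−3.39), 2700094K13Rik (−2.67) and Sephs2 (−2.11).

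Against those shares, of 8 NADPH-supplying enzymes 5 were lower and none higher, led by Idh2 (−3.19), Me2 (−2.33) and Pgd (−1.80). Among the oxidant sources Mpo, myeloperoxidase, was lower (−5.43) and Cybb, the catalytic chain of the phagocyte oxidase, was higher (1.75), with a list median of 0.01. Of 10 genes of the NRF2 pathway Keap1 (−1.71) and Sqstm1 (−1.55) were lower and Fth1, ferritin heavy chain, was higher (3.05). Of 17 peroxisome genes 5 were lower and none higher, a smaller part than the 42.5% of all genes: Pex2 (mean log2 level 0.78 in Myelo and 2.78 in Gran), Hsd17b4 (−1.59) and Pex13 (−1.36) lay furthest down. Among 4 repair genes Park7 (−4.38) was lower, and Msra (0.66) and Msrb2 (0.50) did not reach 1. Markers of S and G2/M phase went the same way as most of these lists in CD11b+ GMP-P, 10 of 10 being lower in Myelo with a median of −2.64. In late July GMP 3 of these 10 markers were lower and 3 higher, with a median of 0.30, beside 41.2% and 12.5% of all genes. Of the 8 oxidant source genes 2 were lower and 6 higher there. The part of the phase markers in the member values was not tested.

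**Figure D5:**
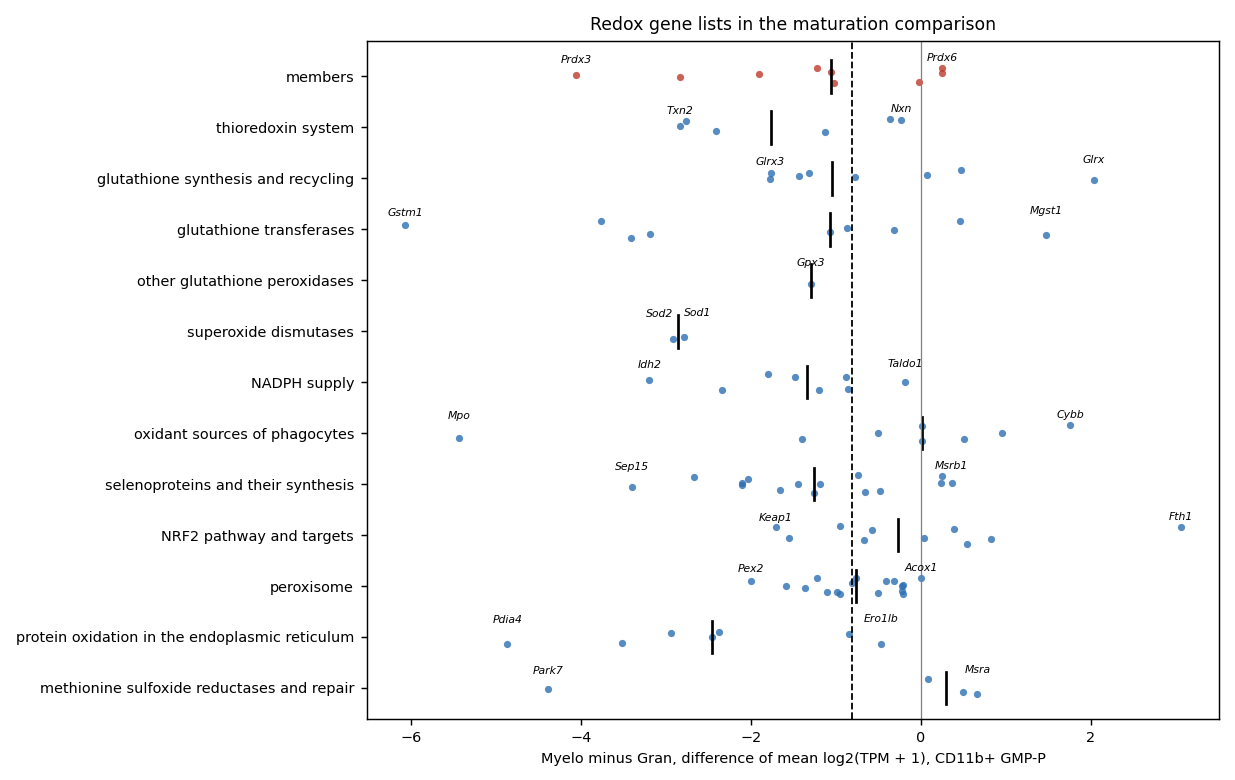
Difference of mean log2(TPM + 1) of Myelo minus Gran in CD11b+ GMP-P for each compared gene of the members (red) and of 12 related lists (blue), with list medians as bars, the median of all genes (−0.81) dashed and 0 as a thin line. Most list medians lie left of or near the dashed line, and Fth1, Glrx and Cybb lie furthest right.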

How the data were processed

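The authors deposited log2 values of 23946 genes for 46 CD11b+ GMP-P and 75 GMP cells, and a second table with 1 of 12 state names per cell. Raising 2 to each value and subtracting 1 gave sums of 999517 to 1001450 per cell, as TPM does, so the deposited values are taken as log2(TPM + 1); 81.7% are 0. Bowtie2, RSEM and mm9 are named in the submitters' processing notes, without versions; no source used here says how states were assigned. RSEM estimates can share reads among similar genes, and a 0 can be a missed transcript.

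From these values, means, SDs, medians and ranges over cells were computed per run and state (Python 3.11.15, pandas 2.3.3, scipy 1.17.1), with exact Clopper-Pearson 95% intervals of shares; where no cell detected a gene, the limit is 3 cells. Intervals cover counting error only. There were 15 comparisons, without tests, since each population is 1 sample. Doublets were not called. Named genes are all 10 members, up to 3 genes per list with the largest difference, and the 5 nearest to Prdx2 and Prdx6; Prdx6b, Trmt112, Junb, Rnaseh2a, Itgam, Mgst1 and S100a8 with S100a9 were added for what they show beside a member; 1 gene the rule names is not reported here. Members, lists and comparisons were chosen with earlier results of these data known. Calls were checked on simulated data whose levels were raised and spread reduced, so that almost no zeros remained. That check does not cover genes detected in few cells, such as Prdx2, Prdx3 and Cat. Promoters and exon overlaps came from RefSeq and GENCODE on GRCm38, another build than mm9. Alternatives were other pseudocounts, filters, scalings, summaries and sets of cells.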

Additional observations from a re-analysis of the deposited data

Results flagged for a closer look

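Gpx4 ran in opposite directions in the 2 sets of cells where Myelo could be set against Gran: 24 Myelo minus 16 Gran cells of CD11b+ GMP-P gave −1.05 on the log2(TPM + 1) scale, and 10 Myelo minus 3 Gran cells of late July GMP gave 2.01. The difference between these differences was not tested. Of the 3 late July Gran cells 1 had no Gpx4 and 3268 TPM of erythroid transcripts, and without it the late July value is −0.30.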

How the results depend on the processing

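Of 195 values recomputed under another setting, 137 stayed close (log2 differences within 0.5 or 1.5 times, counts within 1.5 times, shares inside their interval), 56 moved further, and 2 of a difference that had reached 1 changed sign, both of Gpx4. Smaller differences, such as that of Prdx5, crossed 0 in some settings. The count of 6 members lower in Myelo than Gran of CD11b+ GMP-P was 3 for Myelo-2 minus Gran-2, 2 when called at 2, and otherwise 4 to 7. The median over members, −1.05, was −0.52 without the 20 top genes of each cell, −0.18 for Myelo-2 and −2.05 for Myelo-4 minus Gran-2. Prdx2 in the same comparison was 0.00 by medians over cells, −0.98 for Myelo-2 and −3.13 for Myelo-4. Gpx4 became 0.49 in cells with at least 2000 genes and 0.13 for Myelo-2 minus Gran-2; the cause was not tested. For Prdx2, a pseudocount of 10, medians and the ratio of mean TPM gave −2.84, −8.87 and −2.11 in CD11b+ GMP-P minus GMP, −2.86, −8.77 and −1.34 between Gran cells of the 2 runs, and 3.03, 8.53 and 1.20 in Mono minus Gran of CD11b+ GMP-P, all with the sign kept. Prdx2 of Gran minus MP was −0.25 by medians. Against late July GMP it was −0.83 with a pseudocount of 0.1, −0.83 as a ratio of means and 0.44 in cells with at least 2000 genes. The settings for Prdx2 between Gran cells of the 2 runs and in Mono minus Gran of CD11b+ GMP-P, the share in cells with at least 2000 genes, and late July GMP without the erythroid-bearing Gran cell were chosen after seeing the data; the last gave −6.65 for Prdx2, against −7.62. No paired analysis was possible because each population is 1 sample and cell numbers pair nothing. The share of late July Myelo cells with Prdx2, 20%, was 60% with any value above 0 TPM counted. Unknown depth limits every reading of 0.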
